A study of Macaca mulatta with 2 samples.

Results

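The visual cycle genes RPE65, LRAT, RDH5, RLBP1, RGR, RBP3 and TTR were taken by their symbols among the 26533 features counted in each section, so the set held 7 genes, and all 7 had unique molecular identifiers (UMIs, tags that count captured transcripts) in both sections. The RPE65 row used was the macaque gene, not the human transgene sequence that the authors had added to the reference. The spatial data came from a study of inflammation after subretinal AAV gene therapy in wild-type macaques, in which polyA-captured RNA was counted on arrays of 55 µm spots under a stained tissue section. Both sections analysed here were 10 µm thick and were cut from 4 mm full-thickness punches of retina, choroid and sclera, taken from an area of the right eye that had received no injection. NHP1 was a male aged 5 years whose eyes both carried AAV2-CAG-hRPE65 elsewhere in the retina. NHP2 was a male aged 6 years whose eyes carried AAV8-GRK1-hRPGR and AAV8-GRK1-mScarlet in separate blebs. CAG is a promoter active in most cell types, and the GRK1 promoter drives expression in photoreceptors. Every eye had subtenon triamcinolone, a corticosteroid, and adalimumab went into left eyes only, so neither section came from an adalimumab-treated eye. With 1 section per animal there was no replicate within a group, and the animal, the vector, the age and the library cannot be told apart.

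The visual cycle rebuilds the light-sensitive chromophore 11-cis-retinal after light has turned it into all-trans-retinal. Photoreceptors reduce all-trans-retinal to retinol, the retinol crosses to the retinal pigment epithelium (RPE), and there it is esterified, isomerized and oxidized before it returns. In the RPE, LRAT makes the retinyl esters, RPE65 is the isomerase that acts on them, RDH5 oxidizes 11-cis-retinol, RGR is an opsin that binds all-trans-retinal, and RLBP1 (CRALBP) carries 11-cis-retinoids. RLBP1 is also known in Müller glia, which span the neural retina. RBP3 (IRBP) is secreted by photoreceptors into the space between them and the RPE and carries retinoids across it, and TTR (transthyretin) binds retinol-binding protein and is made by the RPE.

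The NHP1 section had 534 spots under tissue with 1484784 UMIs (median 1473.5 per spot), and the NHP2 section had 470 with 805726 UMIs (median 370.5). Spots were put into classes in 2 ways, by markers that did not include the 7 genes. Leiden regions, clustered without the 7 genes or the other retinoid genes, gave NHP1 photoreceptor regions of 113 spots, an RPE region of 17, inner retina regions of 141 and a choroid region of 73. NHP2 gave a photoreceptor region of 36 spots, an inner retina region of 34 and choroid regions of 99, but no region in which the RPE list stood highest. Its photoreceptor region was mixed, with the RPE list 2.58-fold over the rest of the section, and the NHP1 RPE region had the photoreceptor list at 1.61-fold. The choroid region of NHP1 had the RPE list at 4.08-fold. Of the 99 choroid spots of NHP2, 61 came from a region with the choroid list at 3.66-fold on 3 markers and the RPE list at 2.87-fold on 6, so that region was mixed too. Each spot with at least 200 UMIs was therefore also put in the class whose marker list stood highest in it, which gave 46 RPE-class spots in NHP1 and 31 in NHP2, with a median of 1202.5 and 591 UMIs. Of the 46 RPE-class spots of NHP1, 17 lay in the choroid region, 11 in sclera regions and 9 in the RPE region. Of the 31 of NHP2, 12 lay in the photoreceptor region, 11 in sclera regions and 8 in choroid regions. Another class was near in 14 RPE-class spots of NHP1 and 8 of NHP2. Of the 66 inner retina-class spots of NHP2, 37 lay in sclera regions and 26 in the inner retina region. These spot classes, an alternative laid down beside the regions, carry the levels below because they give both sections an RPE class. RPE regions also formed in both sections at Leiden resolution 2, another alternative, with 53 spots in NHP1 and 22 in NHP2. RPE-class spots still held photoreceptor markers, 97.1 and 123 UMIs per 10000 against 325 and 301 in photoreceptor-class spots, and whether neighbouring cells within a spot or RNA spread between spots account for them was not tested. Fewer cells of a type and less RNA per cell cannot be told apart in such spots.

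TTR, RGR, RDH5, RLBP1 and RPE65 were highest in RPE-class spots of both sections, RBP3 was highest in photoreceptor-class spots, and RLBP1 had a further, lower level in inner retina-class spots. All levels are UMIs of the gene per 10000 UMIs of all genes, all intervals are exact 95% intervals that cover counting error only, and levels of different genes were not set against each other.

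**Figure D1:**
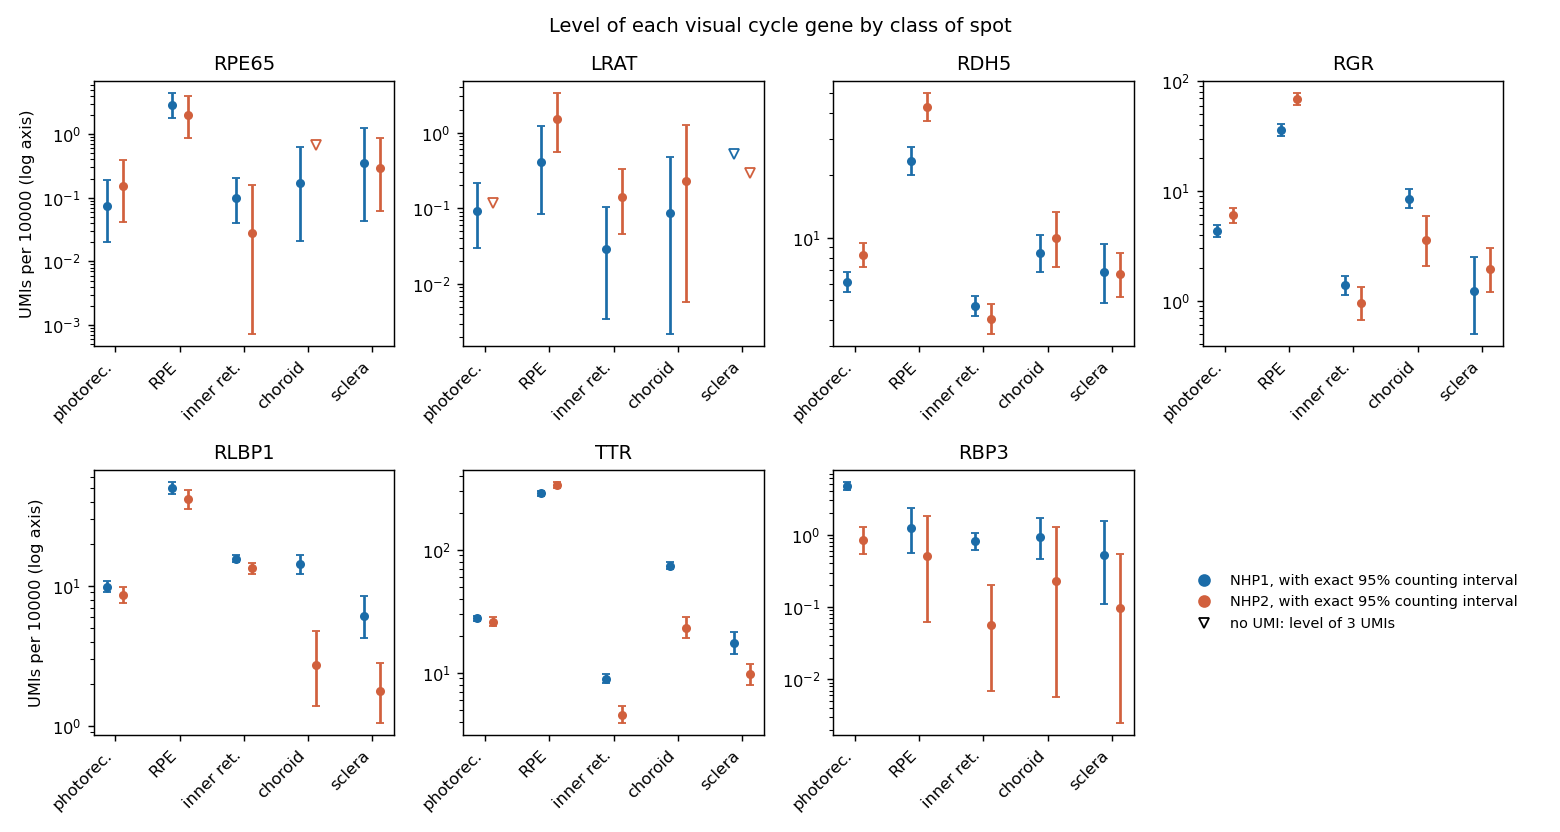
Levels of the 7 genes in UMIs per 10000 by spot class in NHP1 and NHP2, with exact 95% counting intervals. TTR in RPE-class spots reached 288 in NHP1 and 339 in NHP2, and RBP3 was highest in photoreceptor-class spots, though not separated from the RPE class in NHP2.

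TTR was at 288 per 10000 (interval 276 to 301, 2098 UMIs) in the RPE-class spots of NHP1 and at 339 (321 to 357, 1335 UMIs) in those of NHP2. In NHP1 the choroid class followed at 74.0, photoreceptor at 27.7, sclera at 17.5 and inner retina at 8.96. In NHP2 the photoreceptor class was at 26.1, choroid at 23.3, sclera at 9.75 and inner retina at 4.57. The inner retina was thus lowest in both sections, and in NHP2 the photoreceptor and choroid levels were not separated by their intervals. TTR in RPE-class spots was 32.2-fold (29.4 to 35.2) and 74.2-fold (63.0 to 87.8) over inner retina-class spots. It was not even within the class, with a median spot at 182 per 10000 in NHP1 and 319 in NHP2, and with 6 of 46 and 7 of 31 RPE-class spots lacking a TTR UMI. In each section 11 RPE-class spots lay in sclera regions, and whether those were the ones without TTR was not tested.

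RGR, the retinal-binding opsin, was at 36.0 per 10000 (31.8 to 40.6) in RPE-class spots of NHP1 and at 69.5 (61.5 to 78.3) in those of NHP2. In inner retina-class spots it was at 1.39 and 0.959, and in photoreceptor-class spots at 4.33 and 6.01. The level in RPE-class spots lay outside the intervals of every other class, 25.9-fold (20.4 to 33.0) over the inner retina in NHP1 and 72.5-fold (50.7 to 107) in NHP2. RGR was also higher in choroid-class spots of NHP1 (8.53) than in those of NHP2 (3.62).

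RDH5, the 11-cis-retinol dehydrogenase, was at 23.5 per 10000 (20.1 to 27.3) in RPE-class spots of NHP1 and at 42.9 (36.7 to 49.9) in those of NHP2. Its levels outside the RPE class were comparatively flat, from 4.68 to 8.45 in NHP1 and from 4.06 to 9.95 in NHP2. RDH5 therefore had a smaller ratio over the inner retina than TTR or RGR, 5.02-fold (4.15 to 6.06) in NHP1 and 10.6-fold (8.41 to 13.3) in NHP2. Its level in sclera-class spots was 6.84 and 6.69, not above its level of 7.38 and 7.54 in spots outside the tissue.

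RPE65 and LRAT, the isomerase and the esterifying enzyme, were sparse. Whether macaque RPE65 reads that also match the added human RPE65 sequence were lost from the count was not tested. RPE65 had 21 UMIs in the RPE-class spots of NHP1, 2.89 per 10000 (1.79 to 4.41), and 8 UMIs in those of NHP2, 2.03 per 10000 (0.876 to 4.00). The next class was sclera in both sections, at 0.351 (2 UMIs) and 0.295 (3 UMIs), and in both sections the RPE class differed from it. An RPE65 UMI was seen in 13 of 46 RPE-class spots of NHP1 and 5 of 31 of NHP2, against 2 of 82 and 3 of 98 sclera-class spots, whose median depths were 553 and 793 UMIs. RPE65 over the inner retina was 28.7-fold (11.8 to 80.0) in NHP1, while in NHP2 the ratio of 72.0 rested on 1 UMI in the inner retina and its interval began at 9.65. LRAT had 3 UMIs in RPE-class spots of NHP1 and 6 in those of NHP2, or 0.412 (0.085 to 1.2) and 1.52 (0.559 to 3.31) per 10000, and no neighbouring classes in its order of levels were separated. LRAT over the inner retina was 14.4-fold with an interval from 1.64 in NHP1 and 10.8-fold (2.75 to 44.7) in NHP2.

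In each section about the same share of all tissue UMIs lay in RPE-class spots, 4.90% in NHP1 and 4.89% in NHP2, and the 7 genes departed from it to different degrees. They held 40.4% and 55.1% of the TTR UMIs, 37.3% and 54.0% of RGR, 17.7% and 26.2% of RDH5, and 16.6% and 18.3% of RLBP1. For RBP3 the shares were 2.68% and 7.14%. RPE65 had 21 of its 36 tissue UMIs there in NHP1, 58.3% (40.8 to 74.5), and 8 of 16 in NHP2. LRAT had 3 of 11 and 6 of 12. Among the 5 genes with more than 20 UMIs in each section, TTR and RGR had the highest shares.

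**Figure D2:**
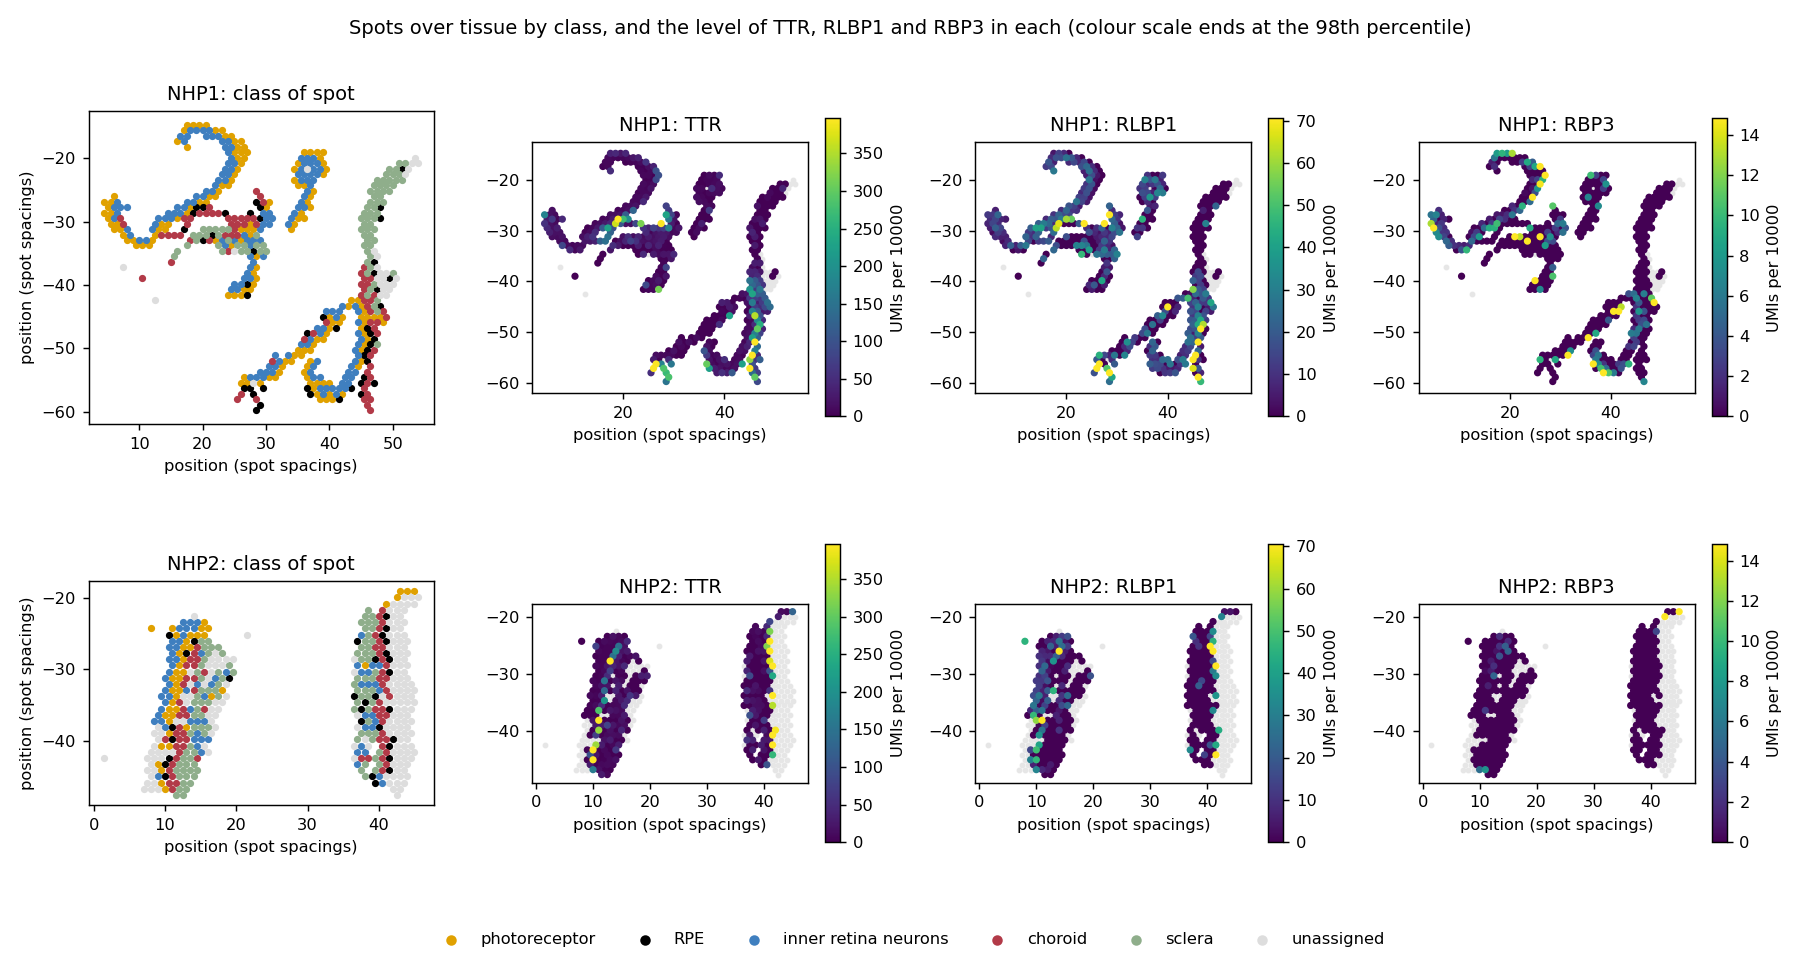
Maps of the tissue spots of NHP1 (top) and NHP2 (bottom) by spot class and by the level of TTR, RLBP1 and RBP3 in UMIs per 10000, positions in spot spacings, pale spots unassigned. High TTR spots lie along RPE-class and choroid-class spots, RLBP1 also covers the inner retina, and RBP3 is seen in few spots of NHP2, where 28 UMIs were counted over the tissue against 336 in NHP1.

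By the regions, 6 of the 7 genes were at least 2-fold higher in the RPE region of NHP1 than in its inner retina regions, where 16.8% of the 9178 genes tested were, and the median ratio was 6.66 against 0.587 over all genes. With the interval also above 1, the count was 5 (3.43% of all genes), since RPE65 rested on 2 UMIs in the region. By spot classes 6 of 7 passed in NHP1 and 7 of 7 in NHP2, where 15.3% and 15.8% of all genes did. With the interval the counts were 6 and 6 (6.34% and 5.18% of all genes), RBP3 being the one left in NHP2. The median ratio of the 7 genes was 14.4 in NHP1 and 10.8 in NHP2, against 0.820 and 0.750 over all genes, and in both sections it was the value of LRAT, which rested on 5 and 11 UMIs in the 2 classes. The region of 17 spots gave lower values than the spot classes for RLBP1, 0.807-fold (0.552 to 1.14) over the inner retina, and higher ones for RBP3, 6.31-fold (3.0 to 12.3), beside its raised photoreceptor list. Larger RPE regions of NHP1 formed at Leiden resolution 2 (53 spots) and with the 7 genes and the retinoid genes kept in the clustering (50 spots). In both, all 7 genes, RLBP1 among them, were at least 2-fold higher than in the inner retina. In the second setting the 7 genes helped to form the regions, so their high levels there are partly built in. With spot classes by 5 RPE markers the NHP1 count was again 6, but RLBP1 left it and RBP3 entered.

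In the photoreceptor regions, 4 of 7 genes in NHP1 (LRAT, RGR, RBP3 and TTR) were at least 2-fold over the inner retina, against 14.2% of all genes. In the photoreceptor region of NHP2, 6 of 7 were, against 12.7%, and TTR there reached 96.8 per 10000 and RGR 20.5. That region held 12 RPE-class spots beside 23 photoreceptor-class spots. At Leiden resolution 2, 2 of 7 (RBP3 and TTR) passed in the photoreceptor regions of NHP2. With photoreceptor-class spots the counts were 4 of 7 in NHP1 and 5 of 7 in NHP2, against 10.0% and 16.1% of all genes. LRAT entered the NHP1 count on 5 against 2 UMIs and RPE65 the NHP2 count on 4 against 1, both with intervals that held 1. In the choroid regions 5 of 7 genes in NHP1 and 6 of 7 in NHP2 passed, against 17.9% and 21.9%. In choroid-class spots the counts were 3 and 4, against 15.9% and 24.7%, and LRAT in NHP1 and RBP3 in NHP2 entered them on 1 choroid-class UMI each, with intervals that held 1. The choroid values moved with the RPE list, which was at 119.8 per 10000 in the NHP1 choroid region and 69.8 in its choroid-class spots, and at 117 and 77.1 in those of NHP2, and whether RPE cells in those spots account for them was not tested.

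RPE-class spots were set against choroid-class spots directly. TTR was 3.90-fold (3.60 to 4.22) higher in NHP1 and 14.5-fold (11.9 to 18.0) in NHP2, and RGR was 4.22-fold (3.34 to 5.37) and 19.2-fold (11.6 to 34.1). RDH5 was 2.78-fold (2.16 to 3.60) and 4.31-fold (3.08 to 6.15) higher. With the interval rule 5 of 7 genes passed in each section (RPE65, RDH5, RLBP1, RGR and TTR), where 2.28% of all genes in NHP1 and 3.53% in NHP2 did. By regions the order in NHP1 was not the same, since the choroid region held 18 RPE65 UMIs and the RPE region 2, and TTR was at 132 and 146 per 10000 with overlapping intervals. RLBP1 turned the other way, at 0.421-fold (0.286 to 0.599) in the RPE region over the choroid region, and RDH5, at 1.21-fold (0.84 to 1.70), was not separated. The RLBP1 direction depended on the clustering. At Leiden resolution 2, RLBP1 was at least 2-fold over the inner retina in the RPE regions of NHP1. It was so too with the 7 genes and the retinoid genes kept in, where RLBP1 itself helped to form the regions. In the choroid regions of those settings it was below the inner retina, so RPE regions stood above choroid regions there.

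The levels were lower in the spots that adjoined the RPE class. Adjoining spots are by rule ones not put in that class, so the step is not a measure of distance alone. TTR was 288 per 10000 in RPE-class spots of NHP1, 41.4 in the spots that adjoined them and 21.8 in the next ring, and in NHP2 it was 339, 20.1 and 12.2. RGR ran 36.0, 4.41 and 2.87 in NHP1 and 69.5, 5.80 and 2.44 in NHP2. RDH5 ran 23.5, 7.17 and 5.38, then 42.9, 7.83 and 5.70. RLBP1 behaved otherwise in NHP2, at 41.9, then 6.08, then 11.4, higher again in the outer of these rings. In NHP1 RLBP1 was 50.01, 15.4 and 13.4. Most of these ring levels were near or under the off-tissue levels given below. When the tissue pieces of each section were taken apart, TTR in RPE-class spots was 276 and 304 in the 2 pieces of NHP1 that held such spots and 296 and 386 in the 2 of NHP2. RPE65 differed more between the pieces of NHP1, at 4.10 (2.39 to 6.57, 17 UMIs) and 1.28 (0.348 to 3.27, 4 UMIs), so that its level of 2.89 over the class rested mainly on 1 piece. Over the same pieces RGR was at 35.7 and 36.4 in NHP1 and 62.5 and 77.4 in NHP2, and RDH5 and RLBP1 had overlapping intervals between the pieces of each section.

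**Figure D3:**
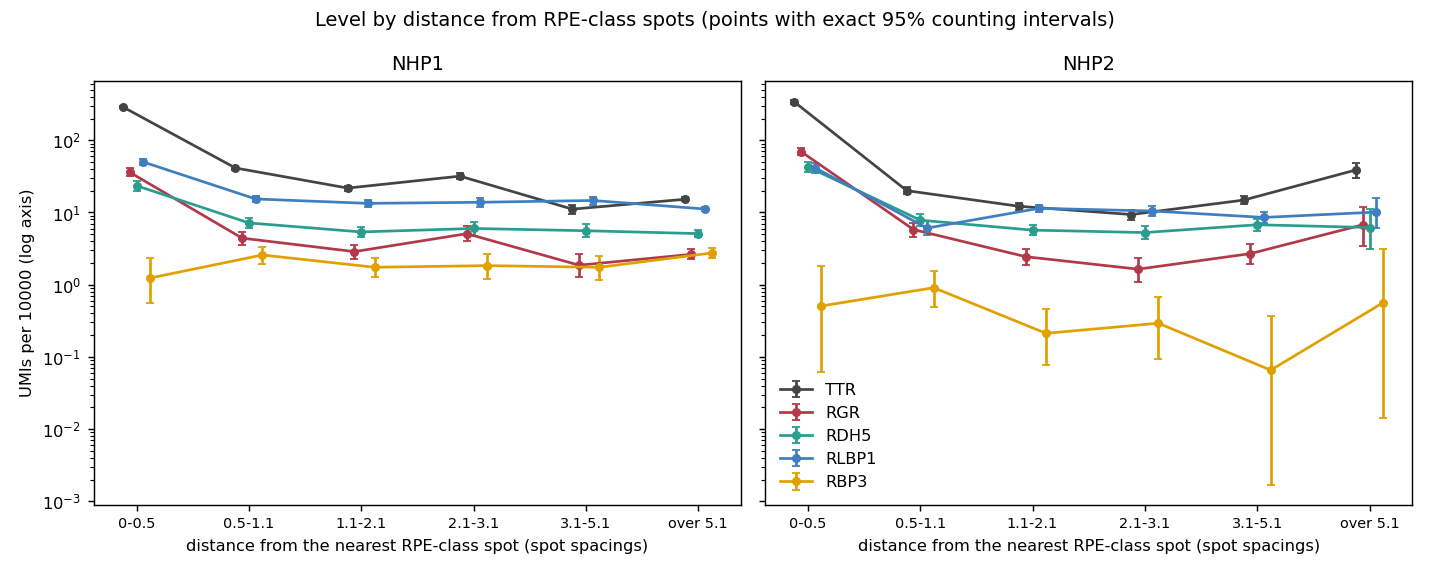
Levels in UMIs per 10000 against distance from RPE-class spots, in spot spacings, with exact 95% counting intervals. TTR fell from 288 to 41.4 in NHP1 and from 339 to 20.1 in NHP2 between the class and the adjoining spots, and RLBP1 of NHP2 was lower in the adjoining ring (6.08) than in the next (11.4).

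RLBP1, the 11-cis-retinoid carrier, had both an RPE and an inner retina level. It was at 50.01 per 10000 (45.01 to 55.4) in RPE-class spots of NHP1 and at 41.9 (35.7 to 48.8) in those of NHP2. Inner retina-class spots came next in both sections, at 15.7 (14.8 to 16.6) and 13.4 (12.2 to 14.7), above photoreceptor-class spots at 9.91 and 8.69. RLBP1 was the only one of the 7 genes whose inner retina level exceeded that of sclera-class spots by an interval clear of 1 in both sections, 2.56-fold (1.83 to 3.69) and 7.58-fold (4.74 to 12.9), whereas TTR was 0.511- and 0.469-fold there. Of all genes, 6.39% and 13.8% were at least 2-fold higher in that comparison with an interval above 1. In NHP1 the choroid level, 14.3, was not separated from that of the inner retina.

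Inner retina-class spots held 49.8% of the RLBP1 UMIs of NHP1 and 52.8% in NHP2, close to their 46.9% and 44.0% of all tissue UMIs. GLUL, a Müller glia enzyme, was highest in inner retina-class spots, at 23.9 and 18.4 per 10000 against 10.3 and 9.77 in photoreceptor-class spots. The list of 10 Müller glia markers as a whole was not: its summed level was highest in sclera-class spots, at 125 and 170.1 per 10000, against 108 and 94.8 in inner retina-class spots. The NHP2 value leaned on few spots, since 1 inner retina-class spot had 95 of the 476 RLBP1 UMIs and 33 of the 66 spots had none. In the inner retina region of NHP2, 32 of 34 spots had an RLBP1 UMI and the level was 13.6. In sclera-class spots 22 of 82 and 16 of 98 had one, at median depths of 553 and 793 UMIs, against 125 of 152 inner retina-class spots of NHP1 at a median depth of 3350.

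Spots outside the tissue also held UMIs of the genes, which sets a floor for reading the lower classes. Over 4284 such spots of NHP1 and 4027 of NHP2, TTR was at 40.7 and 21.7 per 10000, RLBP1 at 13.6 and 9.49, RDH5 at 7.38 and 7.54, RGR at 5.56 and 3.64 and RBP3 at 1.64 and 0.52. TTR, RGR and RDH5 were thus higher outside the tissue than in inner retina-class spots of either section, and their low levels there are not read as expression. The same holds in NHP1 for photoreceptor-class spots, where TTR (27.7), RGR (4.33), RDH5 (6.12) and RLBP1 (9.91) lay under the off-tissue level, although TTR and RGR are among the genes counted above as at least 2-fold over the inner retina there. In photoreceptor-class spots of NHP2, TTR (26.1) and RGR (6.01) lay above it and RLBP1 (8.69) did not. RDH5 was close to its off-tissue level there, although it is among the genes counted as at least 2-fold over the inner retina. In choroid-class spots of NHP2, TTR (23.3) and RGR (3.62) lay within the off-tissue intervals of 18.5 to 25.3 and 2.42 to 5.26. In sclera-class spots TTR, RGR, RDH5 and RLBP1 were not above it in either section. RPE65 was at 0.593 and 0.390 outside the tissue, on 31 and 3 UMIs, above its sclera-class levels. In NHP1 this off-tissue interval, 0.403 to 0.841, lay under the RPE-class interval of RPE65 given above. Spots 2 to 3 spacings from the NHP1 tissue had it at 1.02 (0.529 to 1.79, 12 UMIs). In NHP2 the off-tissue interval of RPE65, 0.0804 to 1.14, overlapped its RPE-class interval. The inner retina level of RLBP1 lay just above the off-tissue level, whose interval ran from 12.6 to 14.6 in NHP1 and from 7.44 to 11.9 in NHP2. In the rings around RPE-class spots of NHP2, RLBP1 was under that interval in the adjoining ring and within it in the next. The other ring levels were mostly near or under the off-tissue levels too. The RPE-class levels of TTR, RGR, RDH5 and RLBP1 were several times the off-tissue levels, and RBP3 in photoreceptor-class spots of NHP1 was above its own. In NHP2 the photoreceptor-class level of RBP3, 0.853, lay within the off-tissue interval of 0.142 to 1.33, which rested on 4 UMIs.

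RBP3, the interphotoreceptor carrier, was at 4.76 per 10000 (4.19 to 5.38) in photoreceptor-class spots of NHP1 and at 0.853 (0.535 to 1.29) in those of NHP2. In NHP1 RPE-class spots were at 1.24, choroid at 0.939, inner retina at 0.818 and sclera at 0.526. In NHP2 the other classes ran from 0.0564 to 0.508, each on 1 or 2 UMIs. RBP3 was highest in photoreceptor-class spots of both sections, 5.82-fold (4.35 to 7.89) over the inner retina in NHP1 and 15.1-fold (3.72 to 133) in NHP2. In NHP2 the photoreceptor and RPE classes were not separated by their intervals, and by regions of NHP1 the RPE region stood above the photoreceptor regions, again not separated. Photoreceptor-class spots held 76.2% of its tissue UMIs in NHP1 and 78.6% in NHP2. It was lower in RPE-class than in photoreceptor-class spots of NHP1, 0.26-fold (0.117 to 0.501), whereas the other 6 genes were at least 2-fold higher there, against 17.3% of all genes, and 5 of them had an interval above 1 (7.17% of all genes), LRAT being without.

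Between the animals, the level of RBP3 over the whole tissue was 2.26 per 10000 in NHP1 and 0.348 in NHP2, a ratio of 0.154 (0.101 to 0.226). It was the only one of the 7 genes that was at least 2-fold lower in NHP2, where 6.48% of the 9996 genes compared were. LRAT was the only one at least 2-fold higher, 2.01 (0.812 to 5.03) on 12 and 11 UMIs, where 7.12% of all genes were, and its interval held 1. RPE65 was at 0.819 (0.424 to 1.51), TTR at 0.859, RLBP1 at 0.757, RDH5 at 1.23 and RGR at 1.33.

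RBP3 was set against the photoreceptor markers. In photoreceptor-class spots RBP3 was at 0.179-fold (0.110 to 0.277) in NHP2 against NHP1, while the summed photoreceptor list was at 0.927, the median ratio of its 16 genes with enough UMIs at 0.692 and SAG (rod arrestin) at 0.885. RBP3 was the 1 gene of 5 tested there that was at least 2-fold lower, where 7.91% of all genes were. There 90 of 156 spots had an RBP3 UMI in NHP1 and 14 of 45 in NHP2, although the NHP2 spots were deeper, with a median of 4071 against 2674.5 UMIs. In sclera-class spots, which should lack the gene, 3 of 82 and 1 of 98 had an RBP3 UMI at median depths of 553 and 793. Of 1595 genes with at least 100 UMIs in those photoreceptor spots, 4 had a lower ratio, and 1 of them was a photoreceptor gene of the list, CNGA1 (a rod channel subunit), at 0.162. The remaining 3 carried only Ensembl identifiers. In the photoreceptor regions, where RBP3 was at 0.297, 24 of 1355 genes had a lower ratio. By tissue piece, RBP3 was at 2.14, 2.38 and 1.41 per 10000 in the 3 pieces of NHP1 and at 0.423 and 0.338 in the 2 of NHP2. The NHP2 level of 0.423 (0.115 to 1.08) rested on 4 UMIs in a piece with 6 photoreceptor-class spots, and its interval overlapped that of the lowest NHP1 piece (0.706 to 2.53, 11 UMIs). With 1 library per animal, the animal and the library cannot be told apart here.

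**Figure D4:**
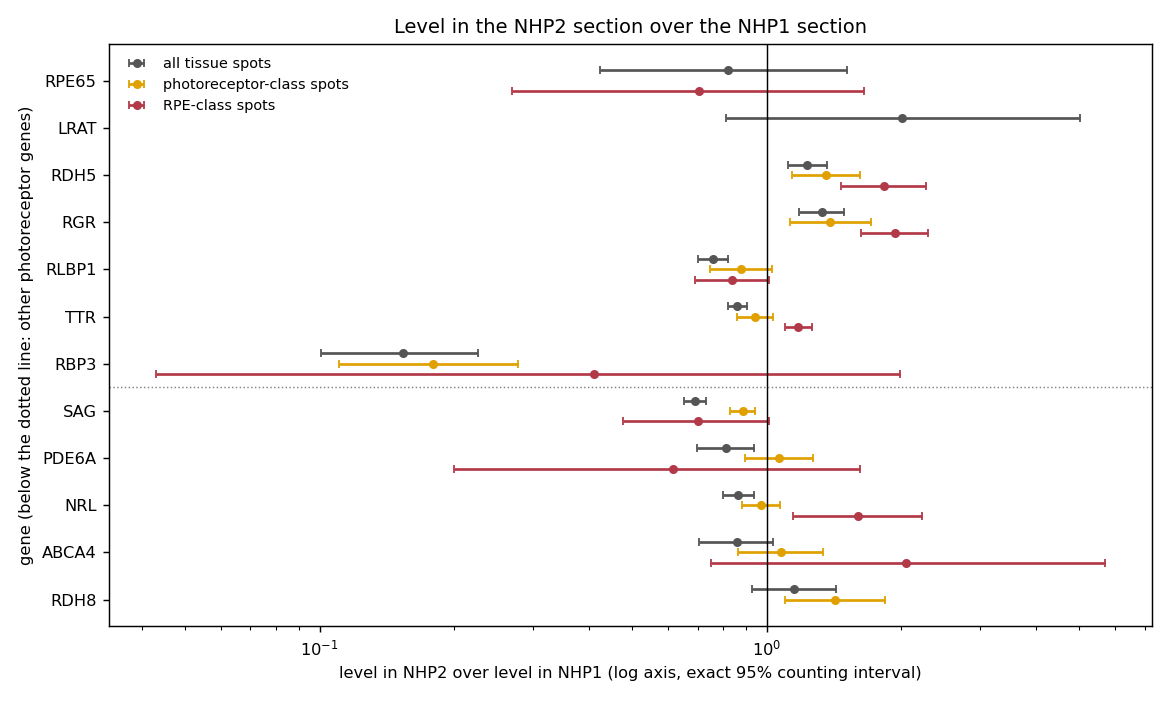
Ratios of NHP2 over NHP1 for the 7 genes over tissue spots and within photoreceptor-class and RPE-class spots where UMIs sufficed, with other photoreceptor genes below the dotted line, on a log axis with exact 95% counting intervals. RBP3 lies at 0.154 over the tissue, apart from the other 6 genes, which lie between 0.757 and 2.01.

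In RPE-class spots alone the ratios of NHP2 over NHP1 were higher than over the tissue for RGR, RDH5, TTR and RLBP1, and lower for RPE65. RGR was at 1.93 (1.62 to 2.30), RDH5 at 1.83 (1.47 to 2.27) and TTR at 1.18 (from 1.1 to 1.26), whereas RLBP1 was at 0.837 (0.692 to 1.01). RPE65 was at 0.704 (0.27 to 1.65) on 8 and 21 UMIs. The TTR difference between animals was smaller than that between the 2 pieces of NHP2, whose intervals of 273 to 321 and 359 to 416 per 10000 were apart. The RPE list itself was at 1.55 in these spots, and ENPP2, an RPE-expressed enzyme of lysophospholipid synthesis, was at 2.96. Of the 6 members with enough UMIs there, 0 were at least 2-fold higher (12.2% of all genes) and 1, RBP3, was at least 2-fold lower (15.5%). In the photoreceptor regions 5 of 7 genes (all but RLBP1 and RBP3) were at least 2-fold higher in NHP2, against 6.89% of all genes, where the NHP2 region is the mixed one with 12 RPE-class spots of 36.

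Of 40 further genes of retinoid handling, 38 were in the reference and 22 had enough UMIs to be named. By spot classes, 9 of 22 in NHP1 and 7 of 17 in NHP2 were at least 2-fold higher in RPE-class than in inner retina-class spots, against the 15.3% and 15.8% of all genes given above. With the interval also above 1 the counts were 6 and 5, against 6.34% and 5.18% of all genes. RDH11, a retinol dehydrogenase, was 2.36- and 3.63-fold higher in RPE-class spots, and DHRS3, a retinal reductase, 3.68- and 7.20-fold on 5 and 8 UMIs. By Leiden regions RDH11 had 1 UMI in the RPE region of NHP1, a level 0.155 times (0.0039 to 0.878) that of the inner retina region, so its direction there was the opposite. STRA6, the RBP4 receptor, was under the minimum of 10 UMIs, with 2 in NHP1 and 0 in NHP2.

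The genes of the photoreceptor side of the cycle were highest in another class. ABCA4, the flippase that clears retinal from outer segment discs, was 4.34- and 7.65-fold over the inner retina in photoreceptor-class spots, RDH8 was 3.56- and 4.88-fold and RDH12 3.50- and 4.70-fold. Both dehydrogenases reduce all-trans-retinal. CRABP1, a retinoic acid-binding protein, was instead highest in the inner retina, at 9.33 and 11.4 per 10000 against 0.962 and 0.761 in RPE-class spots. ALDH1A1, which oxidizes retinal to retinoic acid, was 23.8- and 18.7-fold higher in choroid-class spots than in the inner retina.

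**Figure D5:**
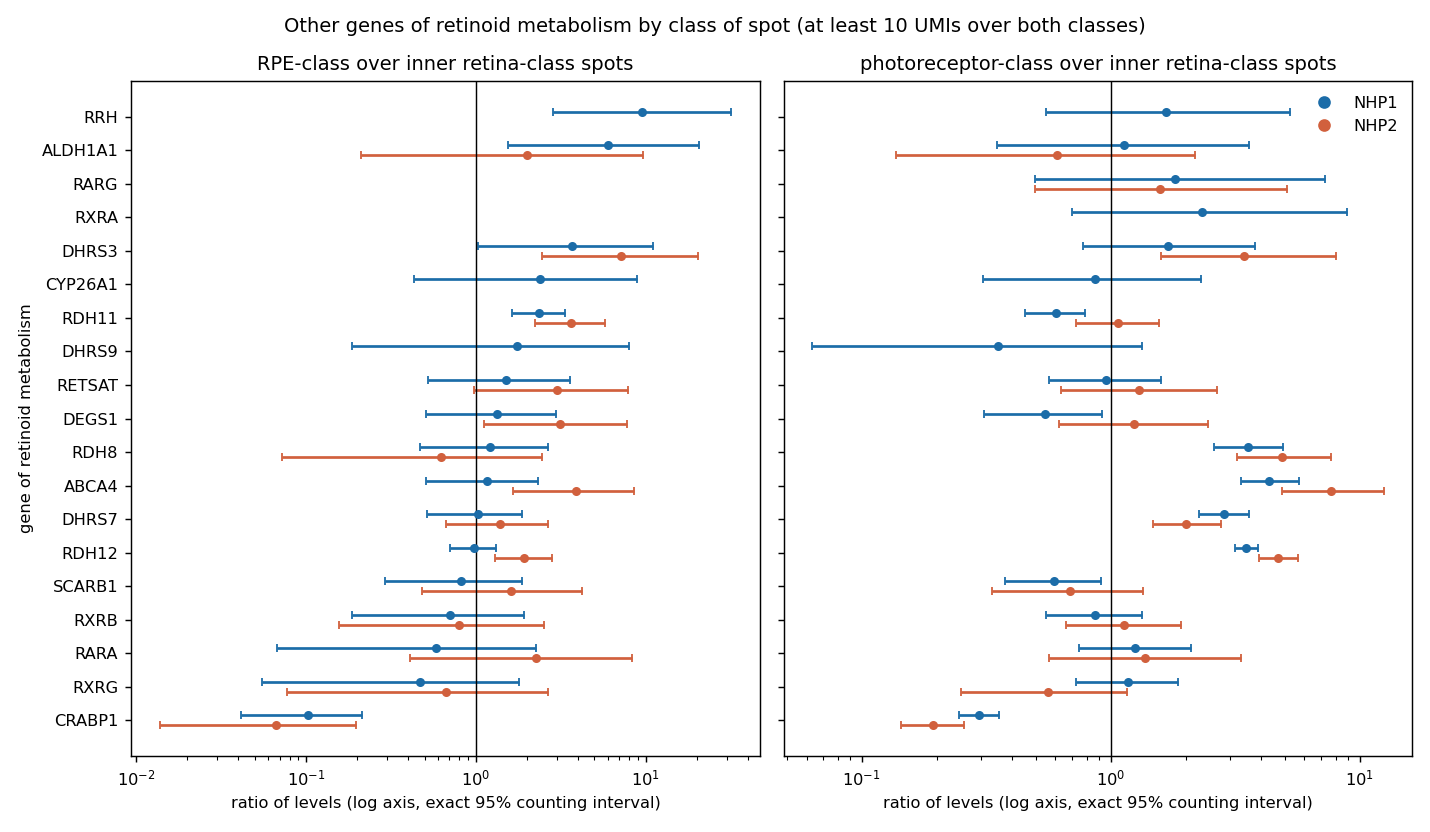
Ratios of further retinoid genes in RPE-class (left) and photoreceptor-class spots (right) over inner retina-class spots in NHP1 and NHP2, where 10 or more UMIs fell in the 2 classes, on a log axis with exact 95% counting intervals. RDH11 stands at 2.36- and 3.63-fold in RPE-class over inner retina-class spots (lower by Leiden regions in NHP1), and ABCA4, RDH8 and RDH12 lie above 3-fold in photoreceptor-class spots.

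Spot by spot, the likeness of genes was measured as Pearson's r of log(1 + level) over 509 spots in NHP1 and 306 in NHP2, among genes with at least 100 UMIs. The spots share a library and differ in depth, so it is given as a description only. RGR and TTR had r of 0.64 in NHP1 and 0.55 in NHP2. For RDH5 in NHP1 the closest genes were RGR (0.44) and TTR (0.41), and in NHP2 they were ENPP2 (0.37) and RGR (0.35). For RLBP1 the closest gene was PCP2 (0.38), a bipolar cell gene, in NHP1 and ATP5ME (0.50), a subunit of the mitochondrial ATP synthase, in NHP2. For RBP3 in NHP1 the closest gene was RTBDN (0.49), which encodes a retinal riboflavin-binding protein. Of the 27 tissue spots with an RPE65 UMI in NHP1, 25 also had a TTR UMI and 25 an RLBP1 UMI, where 387 and 341 of all 534 tissue spots had one. In NHP2 10 of 12 had a TTR UMI, where 207 of all 470 did.

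The promoters of RGR, RLBP1 and RBP3 are shown because these genes stand for the RPE, the shared RPE and inner retina, and the photoreceptor placing. Each window is the 250 bases before the annotated start in RefSeq's annotation of Mmul_10, the assembly the authors used, printed 5′ to 3′ on the gene's strand. Capitals mark matches on either strand to TAATCC, the core bound by the photoreceptor factors CRX and OTX2, and to CATGTG, the M-box core bound by MITF. RGR lies on the minus strand with its window at chr9:53805843-53806092, RLBP1 on the minus strand at chr7:67996786-67997035, and RBP3 on the plus strand at chr9:49694211-49694460.
RGR: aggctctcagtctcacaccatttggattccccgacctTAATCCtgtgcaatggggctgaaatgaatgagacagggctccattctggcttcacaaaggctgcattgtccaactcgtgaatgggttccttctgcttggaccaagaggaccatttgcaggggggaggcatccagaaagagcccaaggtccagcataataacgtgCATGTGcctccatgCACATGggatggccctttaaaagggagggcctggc
RLBP1: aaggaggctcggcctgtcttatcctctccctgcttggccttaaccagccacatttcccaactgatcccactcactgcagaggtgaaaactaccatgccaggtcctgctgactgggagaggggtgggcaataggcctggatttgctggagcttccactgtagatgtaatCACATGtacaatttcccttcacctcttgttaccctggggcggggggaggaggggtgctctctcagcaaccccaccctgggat
RBP3: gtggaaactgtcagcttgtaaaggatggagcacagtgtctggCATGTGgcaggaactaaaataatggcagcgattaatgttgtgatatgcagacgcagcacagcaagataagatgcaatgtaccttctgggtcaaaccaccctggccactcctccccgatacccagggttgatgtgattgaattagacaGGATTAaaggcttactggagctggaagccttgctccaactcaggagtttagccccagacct

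RGR had 1 TAATCC and 2 CATGTG matches, RLBP1 had 1 CATGTG, and RBP3 had 1 of each. RPE65, LRAT, RDH5 and TTR had no match to either motif or to CACGTG, the E-box core, in their windows. Among 20782 windows of that length, 9.29% held TAATCC, 8.26% held CATGTG and 6.45% held CACGTG. A match is a description of the letters and not a bound site.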

How the data were processed

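RNA was captured on Visium 3′ arrays from 1 section of each of 2 animals. The authors ran Space Ranger 2.1.0, per the file headers, on Mmul_10 with transgene sequences added, and deposited raw UMI counts per feature and spot with a tissue mark. A Moran's I score per gene over tissue spots was also deposited by the authors. The 7 genes, the marker lists and the further retinoid genes were chosen with earlier results of these data known.

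Counts were summed over spots and divided by all UMIs of those spots, per 10000. Regions were Leiden clusters (resolution 1, 2000 variable genes, 20 components, 15 neighbours, the 7 genes and retinoid genes left out), named by the marker list highest over the rest among those at least 1.5-fold with at least 3 markers. Shallow regions with no marker of their class among their leading 10 genes stayed unassigned. Spots of at least 200 UMIs were also classed one by one, by the marker list highest over its mean share. Some RPE-list genes are made elsewhere, and the list was at 105 and 106 per 10000 in sclera-class spots.

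A gene was called at a 2-fold ratio, over genes with at least 10 UMIs in the tissue spots of the section for comparisons of classes, and in the spots compared for NHP2 over NHP1. A 0 allows up to 3 UMIs. Exact 95% Poisson, Clopper-Pearson and conditional binomial intervals were computed, and no p-value, since each group had 1 sample. The named retinoid genes were those with at least 10 UMIs, and some genes are not reported here. The interval code was tested on simulated data. Python 3.11.15, numpy 2.4.6, scipy 1.17.1, pandas 2.3.3, scanpy 1.11.5, leidenalg 0.10.2 and matplotlib 3.10.9 were used. The sections had 4341 spot barcodes in common, which mark array positions and not cells. Alternatives were the Leiden resolution, clustering with the genes kept, spot classes, a depth filter, another total, all spots and thinning to 200 UMIs.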

Additional observations from a re-analysis of the deposited data

How the results depend on the processing

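Direction held in 193 of 201 alternative values of the 35 ratios whose interval lay off 1. Of 48 alternative counts of members, 39 stayed within 1.5 times. Of the alternative values of single genes (ratios, levels and shares of spots), 232 stayed within the interval of the value as reported, 131 moved outside it and 8 turned direction. The count of choroid over inner retina in NHP1, 5 by regions, was 2 at Leiden resolution 2 and 2 with the retinoid genes kept in the clustering, and 3 by spot classes and 3 by spot classes with 5 RPE markers, while RLBP1 in that comparison turned to 0.681, 0.707 and 0.908 under the 3 planned settings. At Leiden resolution 2, 2 members in place of 6 passed in the photoreceptor regions of NHP2, where RPE65 fell to 0. By spot classes RPE65 in the choroid of NHP2 also had 0 UMIs. Between animals, the 1 gene higher in NHP2 became 0 with mitochondrial and the 50 most abundant genes out of the total, 0 without the 2 spots richest in each gene, and 5 in photoreceptor regions alone (6.89% of all genes), where TTR turned to 2.75 and RLBP1 to 1.12 and where the NHP2 region held 12 RPE-class spots of 36. In RPE-class spots TTR turned to 1.18. In photoreceptor-class spots 2 genes in place of 1 were lower, because the count here also took LRAT, which with 5 and 0 UMIs is under the minimum of 10 kept in the report. The RPE marker choice and the choice of spots between animals were added after seeing the data, and the cause of the changes was not tested.

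At Leiden resolution 0.5 no RPE region formed in NHP1 and NHP2 lacked a pair of classes to compare, so those counts had no value there. No paired analysis was possible because each animal gave 1 section. No replicate could be left out for the same reason. Depth limited the shares of spots with a UMI: thinned to 200 UMIs, TTR was seen in 38.1% of 509 NHP1 spots and 30.1% of 306 NHP2 spots, against 74.3% and 62.1% of the same spots unthinned and 72.5% and 44.0% of all tissue spots. RBP3 was seen in 4.72% and 1.31%, against 29.7% and 6.21% of the same spots and 28.3% and 4.04% of all.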

Other observations

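By the authors' Moran's I, a score of how far neighbouring spots are alike, TTR was at 0.393 in NHP1 (rank 21 of 13804 genes), RLBP1 at 0.222 (rank 93), RGR at 0.167 (rank 173), RDH5 at 0.135 (rank 265) and RBP3 at 0.117 (rank 344), while RPE65 was at 0.029 and LRAT at 0.007. In NHP2 the scores were lower, with RLBP1 at 0.058 (rank 942 of 12542), TTR at 0.046 (rank 1275), RGR at 0.036 (rank 1751), RBP3 at 0.025 (rank 2400) and RDH5 at 0.013 (rank 3544), while LRAT was at -0.0068 and RPE65 at -0.012.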
